A study of Mus musculus with 8 samples.

Results

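The mitochondrial genome of the mouse is annotated with 37 genes, and all of them had values in RNA sequencing of mouse embryonic stem cells (mESCs). They were taken as every gene whose GENCODE M21 symbol starts with mt-, which gave 37 of the 52338 genes with values: 13 mRNAs, 2 rRNAs and 22 tRNAs. All 37 passed the filter used in the tests, a mean of at least 1 FPKM over the 8 libraries. FPKM stands for fragments per kilobase of exon, scaled to a total per library.

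The study asked about linc1393, a long intergenic non-coding RNA, in pluripotent cells. It had 4 groups with 2 libraries each, numbered replicate 1 and replicate 2 in the titles: cells treated with sh-linc1393 (sh), with sd-linc1393 (sd) or with dd-linc1393 (dd), and untreated cells of WT genotype (control). All 4 groups are mESCs, and the molecule was total RNA. The labels say neither what sd and dd abbreviate nor what the replicate number marks, and they do not state separate cultures for the libraries within a group. The p-values therefore describe the spread among these 8 libraries, and that spread may be technical. No treated group had a control that received a reagent without linc1393, and the level of linc1393 was not analysed here. The 12 mESC markers checked, among them Pou5f1, Sox2 and Nanog, were detected in all 8 libraries.

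Mitochondria carry their own small circular genome, which is copied and read inside the organelle. Its mRNAs encode subunits of respiratory complexes I, III and IV and of the ATP synthase, its rRNAs build the mitochondrial ribosome, and its tRNAs read the codons of those mRNAs. Both strands are transcribed as long precursor RNAs, in which tRNAs sit between most of the other genes, and processing enzymes cut at the tRNA ends to release the separate RNAs. The heavy and light strands differ in base composition, and most genes are read in 1 direction.

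In GRCm38, the assembly that mm10 names, 28 of the 37 genes lie on the plus strand: 12 mRNAs, both rRNAs and 14 tRNAs. The other 9, which are mt-Nd6 and 8 tRNAs, lie on the minus strand. None has an intron in the annotation. The genes are packed end to end. Of 36 neighbouring pairs 9 overlap, 3 of them on opposite strands, the longest overlap is 43 bases and the longest gap is 32 bases. Whether strand was used in the counting is not given in the sources used here. The words "plus" and "minus" therefore describe the annotated genes, and reads from the other strand of the same position could not be told apart.

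The end of the gene map shows this packing. The genes of the proline tRNA mt-Tp (chrM:15356-15422, minus strand) and the threonine tRNA mt-Tt (chrM:15289-15355, plus strand) abut with no base between them, and their levels lay far apart, as given further on. The serine tRNA mt-Ts1 (chrM:6870-6938, minus) and the glutamate tRNA mt-Te (chrM:14071-14139, minus) are shown as other abundant minus-strand tRNAs, and the methionine tRNA mt-Tm (chrM:3845-3913, plus) and the lysine tRNA mt-Tk (chrM:7700-7764, plus) as plus-strand ones. Each is printed as the gene reads, from the GENCODE M21 transcripts, with the anticodon in capitals.
mt-Tp: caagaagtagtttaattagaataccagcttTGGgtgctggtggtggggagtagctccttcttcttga
mt-Tt: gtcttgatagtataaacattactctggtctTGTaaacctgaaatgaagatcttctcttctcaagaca
mt-Ts1: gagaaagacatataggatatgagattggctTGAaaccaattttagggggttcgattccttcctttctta
mt-Te: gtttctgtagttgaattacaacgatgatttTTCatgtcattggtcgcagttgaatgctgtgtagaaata
mt-Tm: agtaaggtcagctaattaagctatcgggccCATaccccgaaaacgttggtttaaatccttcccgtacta
mt-Tk: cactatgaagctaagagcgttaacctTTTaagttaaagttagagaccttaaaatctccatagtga

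Some mRNAs share bases with their neighbour, which bears on the levels below. The ATP synthase genes mt-Atp8 and mt-Atp6 overlap at chrM:7927-7969. In the first line the start codon of mt-Atp6 and the last codon of mt-Atp8 are in capitals. The complex I genes mt-Nd4l and mt-Nd4 meet at chrM:10144-10196, and the capitals in the second line are the 7 bases that both genes hold.
mt-Atp8 and mt-Atp6 overlap: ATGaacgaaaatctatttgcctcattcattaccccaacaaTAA
mt-Nd4l and mt-Nd4 junction: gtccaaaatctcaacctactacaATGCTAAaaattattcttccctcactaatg

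Other members have a near-identical nuclear copy. A run of 7 annotated pseudogenes on the minus strand of chromosome 1 (24611535 to 24616197) holds, for most of its 31-base stretches, letters that the mitochondrial genome also holds. The first 60 bases of mt-Co2 (chrM:7013-7072) and of the nuclear Gm28661 (chr1:24615506-24615565, minus) have the same letters. The first 23 bases of mt-Nd3 (chrM:9459-9481) and of Gm28438 (chr1:24613097-24613119, minus) hold the 1 mismatch found over the 345 bases compared, T3C, counted from 1 at the first base of mt-Nd3 and in capitals.
mt-Co2: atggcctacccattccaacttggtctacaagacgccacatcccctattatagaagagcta
Gm28661: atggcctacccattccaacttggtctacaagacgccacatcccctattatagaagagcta
mt-Nd3: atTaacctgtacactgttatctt
Gm28438: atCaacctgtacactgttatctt

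The copies of mt-Co3 (Gm28437, 783 bases), mt-Co2 (Gm28661, 681 bases), mt-Atp6 (Gm10925, 678 bases) and mt-Nd4l (Gm10222, 294 bases) had 0 mismatches over the bases compared. Gm28439 matched 876 bases, 63.6% of the length of mt-Nd4, with 0 mismatches, and Gm29216 matched 492 bases, 31.8% of mt-Co1, with 6 mismatches, all in its first 13 bases. Of the 31-base stretches of the members, 100% in mt-Co2, 99.9% in mt-Co3, 99.5% in mt-Atp6, 98.9% in mt-Nd4l, 98.1% in mt-Nd3, 63.9% in mt-Co1 and 62.8% in mt-Nd4 occur in a nuclear transcript. For another 7 members the share was 2.71% to 16.8%, and for 23 members no stretch occurred in one. How reads that match several places were counted is not given in the sources used here.

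Depth was estimated as the number of reads on genes, using the size of the steps between small FPKM values. It was 13972320 in sh, 15365414 in sd, 20387067 in dd and 3658367 in control of replicate 2. In replicate 1 it was 13738591 in sh, 20346940 in sd, 19161797 in dd and 6415130 in control. For a gene of 70 bases, the length of a tRNA, 3 reads are worth 2.10 FPKM in dd replicate 2 and 11.7 FPKM in control replicate 2, so a tRNA with a count of 0 could lie anywhere under that level. These floors, and the Wilson 95% intervals used for shares, cover counting error only.

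The mitochondrial genome gave 3.32%, 3.39%, 5.66% and 6.01% of all gene reads in sh, sd, dd and control of replicate 2, against 6.38%, 9.22%, 10.8% and 6.91% in sh, sd, dd and control of replicate 1. All 4 replicate 2 libraries lay below all 4 replicate 1 libraries. The mean share was 4.59% (SD 1.44, n = 4) in replicate 2 and 8.32% (SD 2.04, n = 4) in replicate 1. As a share of summed FPKM, which counts each gene per length, the gap was wider, with 3.99%, 3.53%, 5.77% and 6.20% in sh, sd, dd and control of replicate 2 and 15.1%, 17.9%, 19.7% and 15.4% in replicate 1. The sh group averaged 4.85% (SD 2.17, n = 2) and the sd group 6.30% (SD 4.12, n = 2). The dd group averaged 8.21% (SD 3.61, n = 2), against 6.46% (SD 0.636, n = 2) for control. In bulk RNA, fewer mitochondria or mitochondrial genomes and less RNA from each cannot be told apart. Neither can a different mix of cells, or a technical difference between the libraries.

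The makeup of these reads differed more than their share. The rRNAs gave 28.5%, 22.9%, 18.1% and 33.4% of the mitochondrial reads in sh, sd, dd and control of replicate 2, against 3.30%, 2.22%, 2.10% and 3.0% in sh, sd, dd and control of replicate 1. The mRNAs gave 70.8%, 76.9%, 81.5% and 65.3% in those replicate 2 libraries and 95.1%, 97.1%, 97.3% and 96.1% in the replicate 1 libraries. The tRNAs gave at most 1.58%, in sh replicate 1. Neither the rRNA nor the mRNA share overlapped between the numbers, whatever the treatment.

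**Figure D1:**
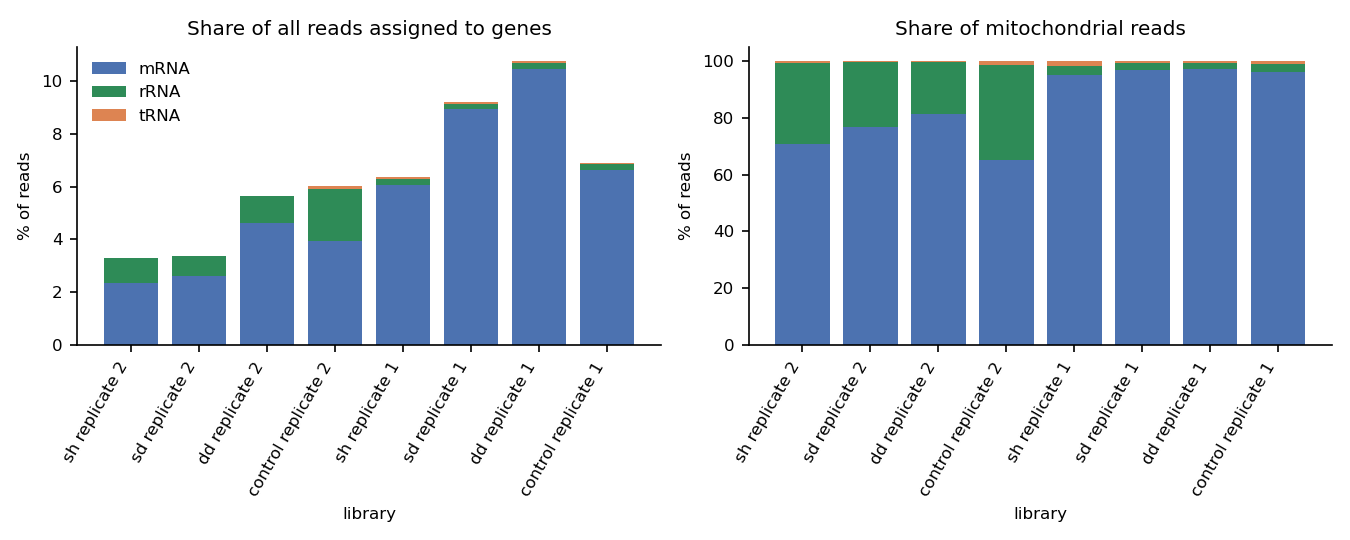
Share of reads from the mitochondrial mRNAs, rRNAs and tRNAs in each library, stacked, as a percentage of all gene reads (left) and of mitochondrial reads (right). The replicate 2 libraries hold 18.1% to 33.4% rRNA among their mitochondrial reads and the replicate 1 libraries 2.10% to 3.30%.

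Levels per length, in FPKM, put the mRNAs mt-Co2 and mt-Co3 on top in every replicate 1 library. Both encode subunits of cytochrome c oxidase (complex IV). Not all mRNAs stood high there: mt-Nd5, mt-Atp8 and mt-Nd4l ranked below the rRNA mt-Rnr2 in each replicate 1 library. The tRNA mt-Tp ranked 3, 8, 8 and 6 among the members in sh, sd, dd and control of replicate 1. mt-Co2 had 4074, 5537, 9064 and 5383 FPKM in sh, sd, dd and control of replicate 2, against 10958, 15921, 25102 and 12717 FPKM in sh, sd, dd and control of replicate 1. mt-Co3 had 4173, 6150, 8703 and 5800 FPKM in the replicate 2 libraries in the same order, against 14698, 19608, 19574 and 14775 FPKM in replicate 1. Each was lower in every replicate 2 library than in any replicate 1 library. The third cytochrome c oxidase subunit, mt-Co1, averaged 4013 FPKM (SD 1724, n = 4) in replicate 2 and 10219 FPKM (SD 3473, n = 4) in replicate 1.

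The replicate number was therefore set against the members as a term in the same model, replicate 2 minus replicate 1 with the group as the other term (limma on log2(FPKM + 1), Benjamini-Hochberg adjustment over 14561 genes). On this scale 30 of the 37 members were called at an adjusted p under 0.05, 16 higher and 14 lower in replicate 2. Of all genes tested, 61.3% were called, 46.6% higher and 14.6% lower, so most of the 14561 genes that passed the filter, and not only the members, were called by number. The direction by class and strand, which was not used to choose them, is what the next paragraphs describe. The replicate number was taken up after same-numbered libraries were seen to lie together. Its p-values are therefore not those of a contrast set beforehand, and they serve here as a description. The median over all genes was 0.73 with FPKM as deposited. It was 0.02 after quantile normalization, where 4015 genes were called higher and 4341 lower, and 0.30 after median ratio scaling, where 5174 were called higher and 3480 lower, against 6787 higher and 2133 lower with FPKM as deposited.

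Both rRNAs were higher in replicate 2. mt-Rnr1, the small-subunit rRNA (ENSMUSG00000064337, chrM:70-1024, plus), had 2544, 2262, 3603 and 4300 FPKM in sh, sd, dd and control of replicate 2, against 641, 595, 652 and 654 FPKM in sh, sd, dd and control of replicate 1. mt-Rnr2, the large-subunit rRNA (ENSMUSG00000064339, chrM:1094-2675), had 4349, 3484, 4305 and 9230 FPKM in the replicate 2 libraries, against 942, 932, 1035 and 915 FPKM in the replicate 1 libraries, in that order. The replicate 1 values lay close together, with an SD of 27.8 around a mean of 636 FPKM for mt-Rnr1, and the replicate 2 values spread more, with an SD of 946 around 3177 FPKM. The log2 difference was 2.27 ± 0.19 (SE) for mt-Rnr1 (adjusted p = 2.13e-05) and 2.37 ± 0.24 for mt-Rnr2 (adjusted p = 5.25e-05). In each of the 4 groups the replicate 2 library had the higher level, with log2 differences of 1.93 to 2.72 for mt-Rnr1 and 1.90 to 3.33 for mt-Rnr2. The ratio of mt-Rnr2 to mt-Rnr1 in FPKM overlapped between the numbers, with 1.71, 1.54, 1.19 and 2.15 in sh, sd, dd and control of replicate 2 and 1.47, 1.57, 1.59 and 1.4 in replicate 1.

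**Figure D2:**
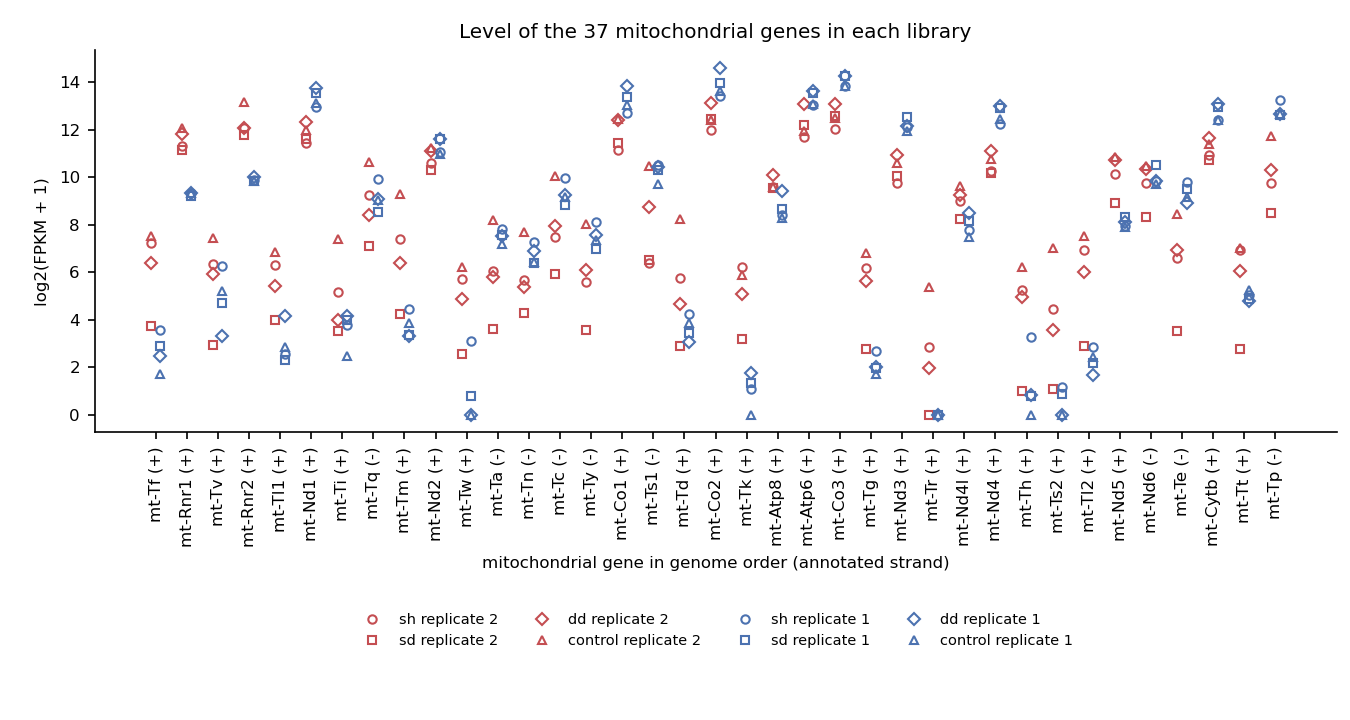
Level of the 37 members in each library as log2(FPKM + 1), in the order of the gene map with the annotated strand, with replicate 2 libraries in red and replicate 1 libraries in blue. The rRNAs mt-Rnr1 and mt-Rnr2 have all 4 red points above the blue ones, and mt-Co1, mt-Co2 and mt-Co3 have all 4 red points below.

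Of the 13 mRNAs, 8 were lower in replicate 2, 3 were higher and 2 were not called, with a class median of -1.4 log2. The 8 were mt-Nd1, mt-Nd3, mt-Nd4, mt-Cytb, mt-Co1, mt-Co2, mt-Co3 and mt-Atp6, and their log2 differences ran from -2.06 to -1.09. mt-Nd4, a complex I subunit, had the lowest, -2.06 ± 0.20 (adjusted p = 3.87e-05). It had 1242, 1173, 2189 and 1750 FPKM in sh, sd, dd and control of replicate 2, against 4892, 7769, 8142 and 5539 FPKM in sh, sd, dd and control of replicate 1. mt-Nd3, also of complex I, followed at -1.86, then mt-Cytb, the cytochrome b of complex III, at -1.54, mt-Nd1 of complex I at -1.51, mt-Co3 at -1.50, mt-Co2 at -1.42 ± 0.14 (adjusted p = 4.08e-05), mt-Co1 at -1.4 and mt-Atp6 at -1.09. All but mt-Atp6 of these had no overlap between the numbers.

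The other mRNAs did not follow. mt-Nd5, the largest complex I subunit encoded here (chrM:11742-13565), had 1138, 488, 1686 and 1866 FPKM in sh, sd, dd and control of replicate 2, against 246, 324, 276 and 237 FPKM in replicate 1 in that order. Its log2 difference was 2.09 ± 0.35 (adjusted p = 9.07e-04), with no overlap, and the call was lost after quantile normalization. mt-Atp8, the small ATP synthase subunit, had 777, 750, 1080 and 776 FPKM in the replicate 2 libraries and 339, 407, 684 and 315 FPKM in the replicate 1 libraries, a log2 difference of 1.01 ± 0.19 (adjusted p = 0.00196). For mt-Nd4l the difference was 1.05 ± 0.31 (adjusted p = 0.0149), with 516, 305, 604 and 790 FPKM against 222, 281, 362 and 178 FPKM. The direction of both flipped after quantile normalization, to -0.45 (adjusted p = 0.0762) for mt-Atp8 and -0.28 (adjusted p = 0.445) for mt-Nd4l. Neither was called after median ratio scaling, and mt-Nd4l was not called without either sh library (adjusted p = 0.0737).

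mt-Nd2, of complex I, had 1547, 1269, 2175 and 2414 FPKM in sh, sd, dd and control of replicate 2, against 2171, 3135, 3137 and 2047 FPKM in replicate 1 (log2 difference -0.52, adjusted p = 0.0842). It was called without either control library and after either rescaling (quantile normalization or median ratio scaling), and with voom weights on recovered reads. mt-Nd6, the complex I subunit on the minus strand, had 868, 317, 1295 and 1414 FPKM in the replicate 2 libraries and 906, 1477, 922 and 834 FPKM in the replicate 1 libraries (log2 difference -0.26, adjusted p = 0.618). It was called after quantile normalization (-1.58, adjusted p = 0.0103) and was positive without either sd library (0.40). The groups overlapped for both.

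**Figure D3:**
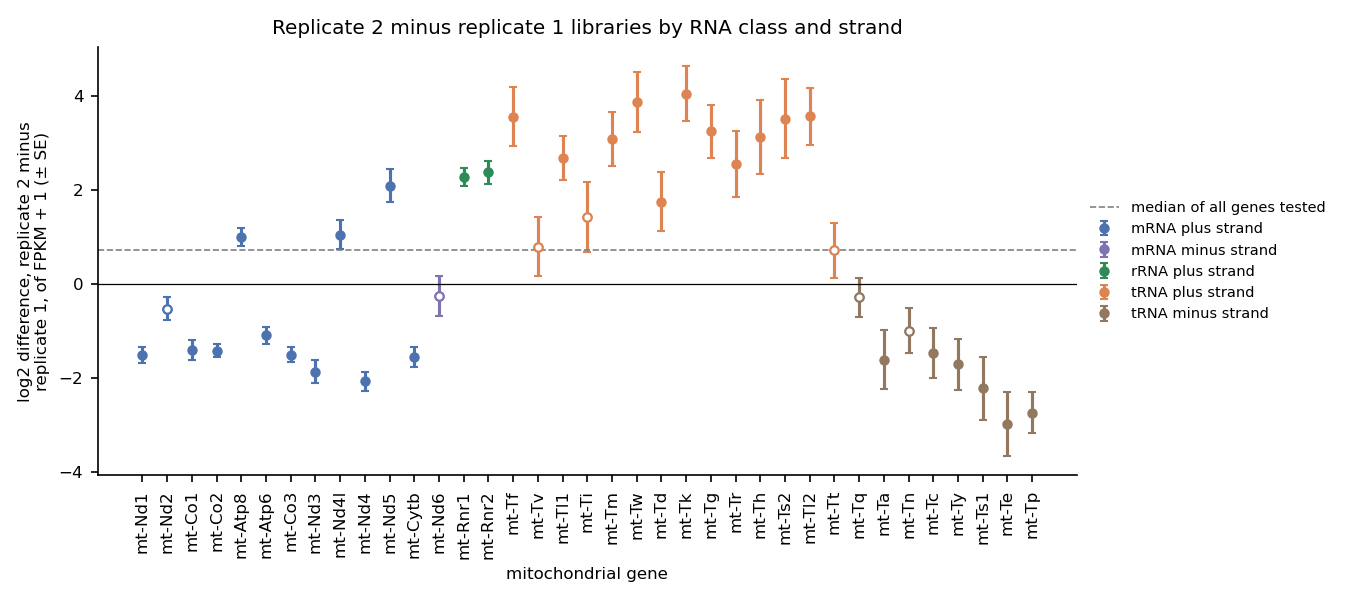
Log2 difference, replicate 2 minus replicate 1, with its standard error for each member, grouped and coloured by RNA class and strand; open markers were not called and the dashed line is the median of all genes, 0.73. The 14 plus-strand tRNAs lie above 0 and the 8 minus-strand tRNAs below it.

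Since scaling moves all members of a library alike, ratios between neighbours in 1 library are free of it, though not of differences in gene length or shared reads. mt-Atp8 over mt-Atp6, whose genes overlap, was 0.231, 0.158, 0.124 and 0.195 in sh, sd, dd and control of replicate 2, against 0.0395, 0.0337, 0.0542 and 0.0364 in sh, sd, dd and control of replicate 1. The ratio of mt-Nd4l to mt-Nd4 was 0.415, 0.260, 0.276 and 0.451 in replicate 2 and 0.0453, 0.0362, 0.0444 and 0.0321 in replicate 1. For mt-Nd5 over mt-Nd4 it was 0.916, 0.416, 0.770 and 1.07 in replicate 2 and 0.0503, 0.0418, 0.0339 and 0.0428 in replicate 1. None of these ratios overlapped between the numbers. mt-Nd6, read from the other strand next to mt-Nd5, went the opposite way relative to it, with mt-Nd6 over mt-Nd5 at 0.763, 0.650, 0.768 and 0.758 in replicate 2 and 3.68, 4.55, 3.34 and 3.52 in replicate 1. The ratio of the large rRNA to the mRNA downstream of it, mt-Rnr2 over mt-Nd1, was 1.58, 1.10, 0.830 and 2.30 in replicate 2 and 0.119, 0.0778, 0.0737 and 0.103 in replicate 1.

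The nuclear copies followed the members they match. Over the 8 libraries the FPKM of the copy divided by that of the member was 1.0 to 1.06 for Gm28437 over mt-Co3, 1.01 to 1.07 for Gm28661 over mt-Co2 and 1.04 to 1.21 for Gm10925 over mt-Atp6. It was 1.09 to 1.49 for Gm28438 over mt-Nd3 and 0.911 to 1.38 for Gm10222 over mt-Nd4l. Reads of these members and of their copies cannot be told apart. The 7 copies together held 1.08%, 1.48%, 2.56% and 1.76% of all gene reads in sh, sd, dd and control of replicate 2, against 3.36%, 4.73%, 5.64% and 3.56% in replicate 1. These reads are not part of the mitochondrial shares given above. Counting them as mitochondrial mRNA would raise the mRNA part of the mitochondrial reads and lower the rRNA part in every library.

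Other copies match only a stretch of a member. Gm28439, which matches the first 876 bases of mt-Nd4, had 0.549, 0.474, 0.439 and 0.520 times the FPKM of mt-Nd4 in sh, sd, dd and control of replicate 2, against 0.230, 0.216, 0.239 and 0.248 times in replicate 1. Gm29216, which matches the last 492 bases of mt-Co1, had 0.494, 0.659, 1.27 and 0.927 times the FPKM of mt-Co1 in replicate 2, against 1.68, 1.57, 1.45 and 1.49 times in replicate 1. Neither ratio overlapped between the numbers: that of Gm28439 was higher in replicate 2 and that of Gm29216 lower. The 6 mismatches of Gm29216 lie at its start, within chrM:6381-6407 of mt-Co1 and chr1:24616171-24616197 (minus) of the copy, and are in capitals.
mt-Co1: ggTCtAAcCggaAttgttttatccaac
Gm29216: ggATtGGcAggaTttgttttatccaac

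**Figure D4:**
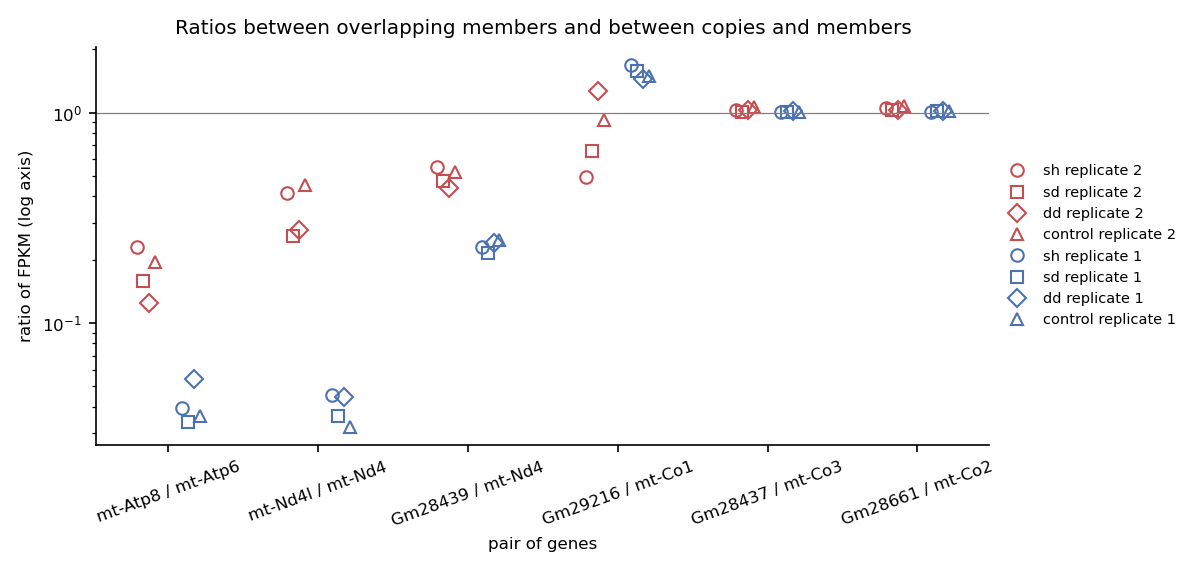
Ratio of FPKM in each library on a log axis for 2 overlapping pairs of members and for 4 nuclear copies over the member they match, with replicate 2 libraries in red to the left of replicate 1 libraries in blue. For mt-Nd4l over mt-Nd4 the replicate 2 libraries lie between 0.260 and 0.451 and the replicate 1 libraries between 0.0321 and 0.0453, while the copies of mt-Co3 and mt-Co2 lie near a ratio of 1 in all 8.

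The tRNAs split by strand. Reads on the 14 plus-strand tRNAs numbered 1023, 108, 826 and 596 in sh, sd, dd and control of replicate 2, against 192, 150, 131 and 53 in sh, sd, dd and control of replicate 1. On the 8 minus-strand tRNAs there were 1922, 727, 3545 and 2153 reads in the replicate 2 libraries and 13627, 13256, 13006 and 4059 reads in the replicate 1 libraries. The plus-strand tRNAs thus held 34.7%, 12.9%, 18.9% and 21.7% of all tRNA reads in replicate 2 and 1.39%, 1.12%, 0.997% and 1.29% in replicate 1, without overlap. Their median level was 72.1, 6.46, 37.2 and 130 FPKM in the replicate 2 libraries and 8.15, 3.70, 3.84 and 3.34 FPKM in the replicate 1 libraries. For the minus-strand tRNAs the median was 89.2, 38.7, 182 and 704 FPKM in replicate 2 and 931, 415, 512 and 545 FPKM in replicate 1, with the control library of replicate 2 inside the range of replicate 1. A mature tRNA is shorter than many library fragments, and no size selection is given in the sources used here.

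On the minus strand, 6 of 8 tRNAs were called lower in replicate 2, none was called higher, and the median difference was -1.65 log2. It was -2.78 after quantile normalization, -2.48 without either control library and -1.05, with 7 of 8 negative, without either sd library. The control group did not share this direction for most of them. Within control, mt-Tq, mt-Ta, mt-Tn, mt-Tc, mt-Ty and mt-Ts1 were higher in replicate 2, by 0.63 (mt-Ty) to 1.63 (mt-Tq) log2. Only mt-Tp (-0.92) and mt-Te (-0.69) were lower there. The proline tRNA mt-Tp was the most abundant tRNA, with 874, 358, 1264 and 3419 FPKM in sh, sd, dd and control of replicate 2, against 9706, 6404, 6530 and 6477 FPKM in sh, sd, dd and control of replicate 1. Its log2 difference was -2.73 ± 0.43 (adjusted p = 6.77e-04), and -3.33 without either control library. The glutamate tRNA mt-Te had 95.4, 10.4, 121 and 353 FPKM in replicate 2 and 884, 727, 486 and 569 FPKM in replicate 1 (-2.97 ± 0.68, adjusted p = 0.00468; -1.96 without either sd library and -3.73 without either control library). These were the tRNAs on this strand whose numbers did not overlap.

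The serine tRNA mt-Ts1 had 83.0, 89.6, 428 and 1430 FPKM in sh, sd, dd and control of replicate 2, against 1462, 1284, 1386 and 834 FPKM in replicate 1. The control libraries went the other way from the treated ones, and the difference of -2.22 became -3.21 without either of them. The cysteine tRNA mt-Tc had 178, 59.2, 244 and 1056 FPKM in the replicate 2 libraries and 995, 459, 610 and 574 FPKM in the replicate 1 libraries (log2 difference -1.46, adjusted p = 0.0353; -2.24 without either control library). The tyrosine tRNA mt-Ty (-1.70) and the alanine tRNA mt-Ta (-1.60) were also called, and reached -2.48 and -2.47 without either control library. These 4 calls depend on the pair of libraries of single groups: those of mt-Ts1 and mt-Ty were lost without an sh or an sd library, and those of mt-Tc and mt-Ta without an sh, an sd or a dd library. The call of mt-Ta was also lost at a pseudocount of 0.1 (adjusted p = 0.0583).

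The glutamine tRNA mt-Tq was not called (-0.28), with 616, 137, 339 and 1617 FPKM in sh, sd, dd and control of replicate 2 and 977, 371, 537 and 520 FPKM in replicate 1, and neither was the asparagine tRNA mt-Tn (-0.99, adjusted p = 0.102). mt-Tq was called after quantile normalization (-1.62, adjusted p = 0.00824) and without either control library (-0.92), and was positive without either sd library (0.10). mt-Tn was called with no filter, after both rescalings (-1.89 and -1.56) and without either control library (-1.73). In all of the minus-strand tRNAs the control library was the highest of replicate 2. It is also the shallowest of the 8 libraries, and the part of depth in this was not tested.

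On the plus strand, 11 of 14 tRNAs were called higher in replicate 2, none was called lower, and the median difference was 3.11 log2. Most were near the floor in replicate 1, where 1, 1, 3 and 5 of the 14 were at 0 reads in sh, sd, dd and control, against 0, 1, 0 and 0 in those libraries of replicate 2. The sd group followed least. Within sd, mt-Tt (-2.08), mt-Tv (-1.77), mt-Td (-0.53) and mt-Ti (-0.49) were lower in replicate 2. The other plus-strand tRNAs ran from 0 (mt-Tr) to 1.84 (mt-Tk) log2 there. The lysine tRNA mt-Tk had 67, 8, 43 and 14 reads in sh, sd, dd and control of replicate 2, against 1, 2, 3 and 0 reads in replicate 1. Its log2 difference of FPKM was 4.05 ± 0.58 (adjusted p = 3.72e-04), and 3.43 without either control library or 4.78 without either sd library. With so few reads the size depends on the pseudocount: at 0.1 it was 5.29 for mt-Tk, below the 5.75 of the tryptophan tRNA mt-Tw and the 5.36 of the serine tRNA mt-Ts2. The methionine tRNA mt-Tm had 169, 17.9, 83.2 and 634 FPKM in the replicate 2 libraries and 21.1, 9.26, 9.08 and 13.6 FPKM in the replicate 1 libraries (3.08 ± 0.58, adjusted p = 0.00171; 2.30 without either control library).

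Beside these, mt-Tw (3.87), the leucine tRNAs mt-Tl2 (3.57) and mt-Tl1 (2.68), the phenylalanine tRNA mt-Tf (3.56), mt-Ts2 (3.52), the glycine tRNA mt-Tg (3.25), the histidine tRNA mt-Th (3.13) and the aspartate tRNA mt-Td (1.75) were called. Reads in sh, sd, dd and control of replicate 1 were 7, 1, 0 and 0 for mt-Tw. They were 1, 1, 0 and 0 for mt-Ts2 and 8, 1, 1 and 0 for mt-Th. Sizes from so few reads depend on the pseudocount, as for mt-Tk. Leaving out either library of a group moved each of the tRNAs listed here but mt-Tl1 by over 1.5 times. Without either control library the values were 3.08 for mt-Tw, 2.81 for mt-Tf, 2.35 for mt-Ts2, 2.63 for mt-Tg, 2.10 for mt-Th and 0.87 for mt-Td. Without either sd library they were 4.57, 4.47, 4.62, 4.07, 4.11 and 2.51 for the same tRNAs, and 4.51 for mt-Tl2. The call of mt-Td was lost without a control, an sh or a dd library, after both rescalings and with voom. The arginine tRNA mt-Tr was called too (adjusted p = 0.0119), with 6, 0, 4 and 10 reads in sh, sd, dd and control of replicate 2 and 0 reads in every replicate 1 library. No fold is given for it, and the call was lost without an sh library (adjusted p = 0.0636).

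The threonine tRNA mt-Tt, next to mt-Tp on the other strand, was not called (0.72), nor were the isoleucine tRNA mt-Ti (1.42) and the valine tRNA mt-Tv (0.80). Without either sd library mt-Tt and mt-Tv were called, both at 1.65, and with no filter mt-Ti and mt-Tv were called. mt-Tt had 121, 5.83, 65.2 and 131 FPKM in sh, sd, dd and control of replicate 2, against 31.5, 27.9, 26.5 and 37.2 FPKM in replicate 1. The ratio of mt-Tp to mt-Tt was 7.24, 61.5, 19.4 and 26.2 in replicate 2, against 308, 230, 247 and 174 in replicate 1, so the pair of abutting genes printed above differed less in every replicate 2 library.

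Without any model, 8 members had all 4 replicate 2 libraries above all 4 replicate 1 libraries, against 41.9% of all genes tested. They were both rRNAs, mt-Nd5, mt-Atp8 and the tRNAs mt-Tf, mt-Tk, mt-Tg and mt-Tl2, all on the plus strand. The opposite held for 9 members, against 14.2% of all genes: mt-Nd1, mt-Co1, mt-Co2, mt-Co3, mt-Nd3, mt-Nd4, mt-Cytb, mt-Te and mt-Tp. The signs of the class medians held under quantile normalization and under median ratio scaling as well as for FPKM as deposited. Across the 37 members, Spearman correlations of FPKM were 0.909 to 0.993 for pairs of libraries that share a number. They were 0.808 to 0.929 for the pair within each group, a description over genes that share each library.

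Some markers also moved with the number, as did most genes tested. Of the 12 mESC markers, 4 were called higher in replicate 2 and 2 lower, against 46.6% and 14.6% of all genes. The median log2 difference of these 12 markers was -0.07. Their summed level was 7071 to 10152 FPKM in replicate 2 and 1515 to 1960 FPKM in replicate 1, with none at 0 in any library. Dppa5a alone had 5866 to 8584 FPKM in replicate 2 and 292 to 557 FPKM in replicate 1. Sall4 (-1.10) and Zfp42 (-0.62) were the markers called lower. The summed level of 12 fibroblast feeder markers was 9.13 to 14.4 FPKM in replicate 2, with none at 0, and 3.15 to 8.13 FPKM in replicate 1, with 5 to 9 of 12 at 0. The 9 at 0 were in control replicate 1, the shallowest library of that number. How many of all genes were at 0 was not counted. With no filter, 8287 of 49548 genes were called higher in replicate 2 and 1985 lower. Col3a1, Dcn, Lum and Postn, collagen and matrix genes of fibroblasts, were at 0 in every replicate 1 library. Only 3 feeder markers passed the filter: Pdgfrb and Twist1 were higher in replicate 2, and Pdgfra was lower, with a mean of 0.441 FPKM in replicate 2 and 2.89 FPKM in replicate 1 (-1.40, adjusted p = 0.00401). The part of these differences in the mitochondrial values was not tested.

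The treatments were compared in the fit of the 4 groups. In sh, sd or dd against control, and in the 3 comparisons among the treated groups, no member was called at an adjusted p under 0.05 by limma. Of all 14561 genes tested, 0.0% were called in each of these 6 comparisons. No member had an unadjusted p under 0.05 either, against 32 genes in sh, 50 in sd and 83 in dd against control, and 13, 14 and 8 genes in sd against sh, dd against sh and dd against sd. By voom weights on the recovered reads, 0 members and 0 genes were called, and 0 members had an unadjusted p under 0.05. Neither fit has a term for the replicate number, so the gap between the numbers enters the spread. In the limma fit the standard errors of the members ran from 0.84 (mt-Nd2) to 2.45 (mt-Tk) log2. Such a test could hardly call a treatment difference, so no conclusion of equal levels is drawn from it. With the replicate block the counts under an unadjusted p of 0.05 rose, as given at the end. Because the numbers differed so much, differences within each number are given below, and what follows is a description of levels. The 3 comparisons against control share the same 2 control libraries. Members are also read from shared precursors and measured in the same libraries. Counts of members that moved together are therefore not counts of independent results, and the shares of all genes beside them are a description.

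In dd cells the mRNAs had the highest fitted mean levels of the 4 groups. All 13 had positive differences from control in the fit, with a median of 0.44 log2, against 0.06 over all genes. The median was 0.31 within replicate 2 and 0.62 within replicate 1. After median ratio scaling 11 of 13 were positive with a median of 0.27, and after quantile normalization 9 of 13 with 0.16. Leaving out 1 library sets unequal numbers against each other: 6 of 13 were positive without dd replicate 1 (median -0.03), 10 without dd replicate 2 (1.08), 10 without control replicate 1 (0.94) and 8 without control replicate 2 (0.25). Higher in dd than in control within both numbers were 8 of 13 mRNAs, against 31% of all genes: mt-Nd1, mt-Nd3, mt-Nd4, mt-Co2, mt-Co3, mt-Atp6, mt-Atp8 and mt-Cytb. mt-Co2 had the largest difference, 0.87 ± 1.12 (SE; adjusted p = 1), with 0.75 within replicate 2 and 0.98 within replicate 1. It averaged 17083 FPKM (SD 11341, n = 2) in dd and 9050 FPKM (SD 5186, n = 2) in control, a difference smaller than the SD of the dd libraries. The tRNAs had 6 of 22 lower in dd than in control within both numbers, against 15.1% of all genes, and none higher.

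Against sh the dd mRNAs were higher within both numbers in 13 of 13, against 21.5% of all genes, with a median of 0.74 in the fit, where all 13 were positive under both rescalings too, 0.82 within replicate 2 and 0.67 within replicate 1. The tRNAs did not share this: 13 of 22 were lower in dd than in sh within both numbers, against 25.7% of all genes, and none was higher. The mRNA median was 0.27 to 1.64 leaving out any dd or sh library, with 9 to 12 of 13 positive.

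In sh cells 12 of the 13 mRNAs had negative differences from control, with a median of -0.29 in the fit, -0.55 within replicate 2 and -0.01 within replicate 1. After median ratio scaling 13 of 13 were negative with a median of -0.50, and after quantile normalization 11 of 13 with -0.08. Lower within both numbers were 7 of 13, against 10.6% of all genes, and higher was 1, mt-Atp8, against 35.2%. The share of reads from the mitochondrial genome was 3.32% in sh and 6.01% in control of replicate 2, and 6.38% in sh and 6.91% in control of replicate 1. The rRNA mt-Rnr1 was also lower within both, with log2 differences of -0.76 in replicate 2 and -0.03 in replicate 1. Nearly all of this difference was within replicate 2. Leaving out sh replicate 2 gave 7 of 13 positive mRNAs and a median of 0.41, and leaving out control replicate 1 gave 7 of 13 and 0.22. The median was -1.0 without sh replicate 1 and -0.76 without control replicate 2. Of the mESC markers, Pou5f1 had 14.7 FPKM in sh and 251 FPKM in control of replicate 2, and 24.2 FPKM in sh and 83.1 FPKM in control of replicate 1 (unadjusted p = 0.0397, adjusted p = 1). Sox2 had 19.7 FPKM in sh and 291 FPKM in control of replicate 2, and 177 FPKM in sh and 200 FPKM in control of replicate 1. In the fit 10 of the 12 markers had positive differences in sh. The part of these differences in the mitochondrial values was not tested.

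In sd cells the tRNAs had the lowest fitted mean levels of the 4 groups. This did not hold in each number: in replicate 1 the plus-strand median was 3.70 FPKM in sd and 3.34 FPKM in control. All 22 tRNAs had negative differences from control in the fit, with a median of -2.28 for the plus strand and -2.06 for the minus strand, against 0.17 over all genes. Within replicate 2 the medians were -4.40 and -4.06, and within replicate 1 they were 0.12 and -0.04. All 22 stayed negative in the fit with both rescalings. Without sd replicate 2 the medians were -2.32 (plus) and -0.41 (minus), without control replicate 2 they were 0.46 and -1.69, without sd replicate 1 -2.11 and -3.70, and without control replicate 1 -4.51 and -2.49. Lower in sd than in control within both numbers were 11 of 22 tRNAs, against 12.7% of all genes. Some of these rest on few reads in sd and control of replicate 1, such as 6 and 3 for mt-Tl1 and 5 and 2 for mt-Tl2. mt-Tt differed from control by -2.34 ± 1.13 (SE; unadjusted p = 0.0796), with -4.27 within replicate 2 and -0.40 within replicate 1. Against sh, whose depth was closer to that of sd, 18 of 22 tRNAs were lower in sd within both numbers, against 24.8% of all genes, with a median of -1.73 in the fit, -2.96 within replicate 2 and -0.66 within replicate 1. The plus-strand median ran from -3.54 without sh replicate 1 to -0.31 without sh replicate 2, and the minus-strand median was 0.38 without sd replicate 2. The mRNA median was -0.46 without sd replicate 1 and -0.29 without sh replicate 2, and both rRNAs were positive without those libraries. Of the mRNAs, 6 of 13 were higher in sd than in sh within both numbers, against 20.1% of all genes.

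The sd mRNAs had a median difference from control of -0.04, with -0.58 within replicate 2 and 0.48 within replicate 1, so their direction depended on the number. In the fit 6 of 13 were positive, against 1 with median ratio scaling and 4 with quantile normalization. Higher within both were mt-Co2, mt-Co3 and mt-Atp6, 3 of 13, against 37.5% of all genes. Between dd and sd, all 37 members had positive differences in the fit (1 mRNA was negative after quantile normalization), with a median of 0.81, and 22 were higher in dd within both numbers, against 18.7% of all genes. The median was 1.79 within replicate 2 and 0.06 within replicate 1. None was lower within both numbers, against 28.2% of all genes. The mRNA median was -0.04 without dd replicate 1 and -0.27 without sd replicate 2, the plus-strand tRNA median -0.40 without dd replicate 2, and the minus-strand tRNA median -0.49 without sd replicate 2. Both rRNAs were negative without dd replicate 2 or sd replicate 1.

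**Figure D5:**
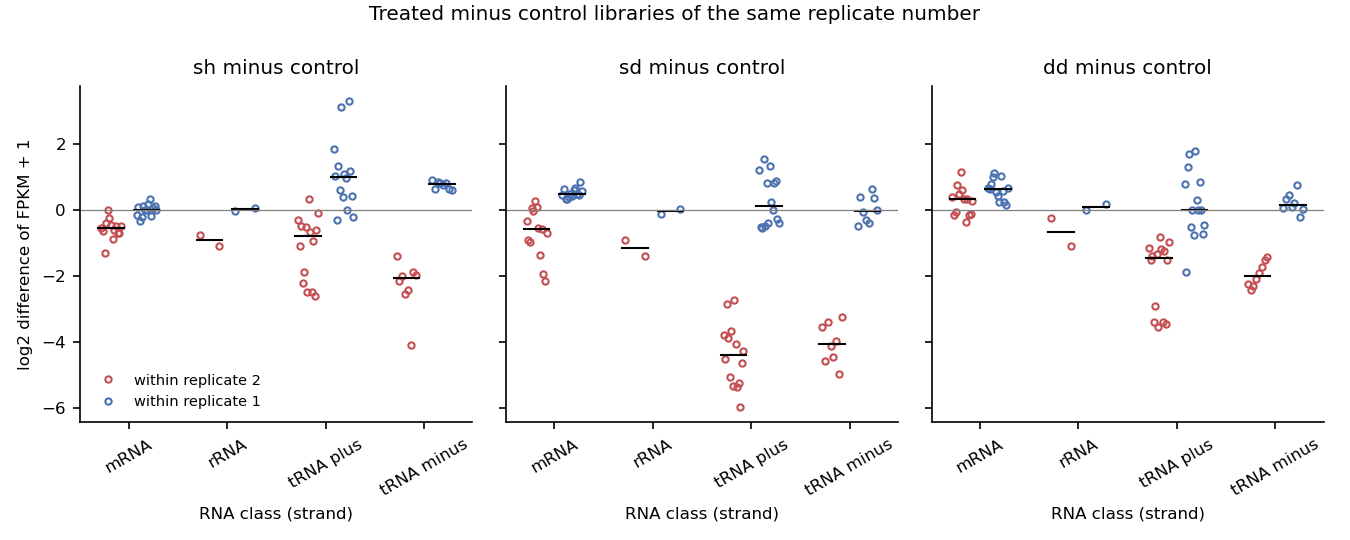
Log2 difference from control of each member within replicate 2 and within replicate 1, for sh, sd and dd, by RNA class and, for tRNAs, strand, with a line at each median. For sd the tRNAs lie far below 0 within replicate 2, with medians of -4.40 and -4.06 by strand, and near 0 within replicate 1, at 0.12 and -0.04.

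The mitochondrial genome encodes none of the enzymes that transcribe it or process its RNA, and 4 lists of nuclear genes for these steps were followed. In replicate 2 against replicate 1, 7 of 16 tested genes of mitochondrial DNA transcription and replication were higher and 1 was lower, at a median of 0.79 log2. Of RNA processing and decay 6 of 20 were higher and 3 lower (median 0.07), of tRNA charging and modification 10 of 23 were higher and 1 lower (0.60), and of rRNA modification and translation 7 of 17 were higher and none lower (0.65). All of these shares called higher lie below the 46.6% of all genes called higher.

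Hsd17b10, a subunit of the mitochondrial RNase P that cuts the start of tRNAs out of the precursor, had 54.9, 53.1, 44.7 and 45.1 FPKM in sh, sd, dd and control of replicate 2, against 8.07, 11.1, 6.67 and 4.32 FPKM in replicate 1. The log2 difference was 2.62 ± 0.25 (adjusted p = 3.85e-05), with no overlap. In the same direction were the nuclease Mgme1 (1.83) and the mitochondrial topoisomerase Top1mt (1.95), the RNA-binding protein Ptcd2 (1.46), the prolyl-tRNA synthetase Pars2 (1.71), which charges the tRNA mt-Tp, the tRNA modifier Trit1 (1.52), the release factor Mtrf1 (1.35) and the rRNA methyltransferase Mrm1 (1.55). With Hsd17b10, these are the 2 genes with the lowest unadjusted p in each list.

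Against control, no gene of the 4 lists was called in sh, sd or dd. Most differences were positive: 12 of 16, 19 of 20, 19 of 23 and 13 of 17 in sh, 12, 19, 17 and 12 in sd, and 11, 15, 16 and 12 in dd, in the order of the lists above. Of all genes tested, 65.5% were positive in sh, 62.9% in sd and 53.6% in dd. Trmt10c, the methyltransferase subunit of the same RNase P, had 19.4, 22, 34.0 and 11.5 FPKM in sh, sd, dd and control of replicate 2, and 26.2, 25.4, 29.6 and 14.4 FPKM in sh, sd, dd and control of replicate 1. In both numbers every treated library lay above control, and the difference of dd from control was 1.24 log2 (unadjusted p = 0.0595, adjusted p = 1). Trmt10c was named for its low unadjusted p, and lying above control in both numbers was common. It held for 35.2% of all genes in sh, 37.5% in sd and 31% in dd. The share of genes above control in every treatment at once was not counted. The asparaginyl-tRNA synthetase Nars2 had differences of 1.28 in sh, 1.16 in sd and 1.25 in dd (adjusted p = 1 in each). Its levels were 2.4, 2.5, 3.6 and 1.5 FPKM in sh, sd, dd and control of replicate 2. In replicate 1 they were 4.1, 3.2, 2.6 and 0.16 FPKM in that order. These differences thus rest in large part on the low value of control replicate 1.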

How the data were processed

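Total RNA of mESCs was made into Illumina libraries, per the labels' protocols. The authors deposited 1 table of FPKM per gene and library. CASAVA 1.4, HISAT2 and the mm10 build appear in the submitters' processing notes. The sources used here do not give the counting program, annotation, strand use or treatment of multiply matching reads. Of 58420 rows 6082 had no value, and 52081 of the other 52338 matched a GENCODE M21 gene by Ensembl identifier. FPKM times exon length fell on whole reads (tolerance 0.02) for 98.3% to 98.9% of low values per library, which gave depth and read shares.

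Differences were tested with limma 3.58.1 (R 4.3.3), applied to log2(FPKM + 1), which understates changes of low genes, for 14561 genes with a mean FPKM of at least 1, with a mean-variance trend, two-sided, and Benjamini-Hochberg adjustment over all genes. Treatments were fitted over all 4 groups without covariates (4 residual degrees of freedom), and the replicate number with the group as the other term (3). In that fit, leaving out either library of a group gives the same difference. The limma step was tested on simulated data, and the other steps used Python 3.11.15. The number was examined because same-numbered libraries lay together. Stretch sharing used 31-base windows of GENCODE M21 transcripts.

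The members and lists were chosen with earlier results of these data known. Named were all mRNAs and rRNAs, the 5 most abundant and all called tRNAs, and 2 genes per nuclear list with the smallest unadjusted p. mt-Tt, mt-Ti, mt-Tv and mt-Tn are named beside them as the uncalled tRNAs, and Dppa5a, Sall4, Zfp42, Pou5f1, Sox2, Twist1, Pdgfra, Pdgfrb, Col3a1, Dcn, Lum and Postn were named after their values were seen. Alternatives were pseudocounts of 0.1 and 0.5, no filter or at least 5 FPKM, quantile, median ratio and nuclear-read scaling, voom, a replicate block and leaving out libraries.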

Additional observations from a re-analysis of the deposited data

How the results depend on the processing

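Members called between the replicate numbers were 30, and 29 to 33 under the other settings (23 to 32 leaving out 1 library). After quantile normalization mt-Atp8 (-0.45) and mt-Nd4l (-0.28) reversed. No member was called between treatments under any setting run. The difference in mitochondrial share, replicate 2 minus replicate 1, was -3.73 points of reads (-4.37 to -2.91 leaving out 1 library) and -12.2 points as a share of summed FPKM, in which short genes weigh more. Leaving out 1 library moved the share difference from control to between -3.15 and -0.0788 points in sh, -3.08 and 2.76 in sd, and -0.806 and 4.30 in dd, against -1.61, -0.161 and 1.75 with all libraries. With the replicate block 0 members and 0 genes were called; 1, 15 and 4 members in sh, sd and dd against control had an unadjusted p under 0.05, beside 480, 945 and 1310 of all 14561 genes. Deviations of same-numbered libraries correlated at 0.750 to 0.893, but no label says what pairs them. Leaving out 1 library of a treatment comparison turned the direction of several class medians, as given beside them. Many plus-strand tRNAs had fewer than 10 reads in replicate 1 libraries.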
